A study of Mus musculus with 2 samples.

Results

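The genes described here are 30 mouse genes of cholesterol and fatty acid synthesis, taken by name from the 32285 genes of the deposited matrices. They were 8 mevalonate pathway enzymes, 9 enzymes of the squalene and sterol steps, 4 genes of regulation and sterol transport, and 9 genes of fatty acid synthesis and desaturation. Their UMI counts (counts of distinct RNA molecules) were summed over cell classes in 2 single-cell libraries of subcutaneous mouse tumours made with the 10x immune profiling assay. One library came from tumours grown on a serine/glycine-free diet and one from tumours grown on the control diet. How many mice were pooled, their strain and age, and the tumour line are not stated in the labels, and the extraction text describes human heart tissue although organism, source and design name mouse tumours. With 1 library per diet no difference between diets could be tested, so every difference below is a difference between these libraries or between classes of cells within one of them.

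Cholesterol is built from acetyl-CoA through mevalonate, isoprenoid diphosphates, squalene and lanosterol, and fatty acids are built from cytosolic acetyl-CoA and then elongated and desaturated. When sterols in the endoplasmic reticulum run low, the escort protein Scap carries the precursors of the transcription factors Srebf1 and Srebf2 to the Golgi, where they are cleaved to enter the nucleus and switch on these genes, and Insig proteins hold them back when sterols are plentiful. The desaturation, demethylation and epoxidation steps of both pathways use molecular oxygen, while the mevalonate steps before squalene do not.

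Promoter sequence from RefSeq (build GRCm38.p6) was used for 23 of the 30 genes, as windows of 300 bases that start 250 bases before the annotated gene start. Any windows on a single chromosome were not considered for the members, while the shares over all genes included them. Hmgcs1, Idi1, Cyp51 and Msmo1, with low values in Car9-high cells (defined below), and Acly, without such a pattern, are shown, with the 250 bases before the start written 5′ to 3′ on the strand of the gene. Capitals mark matches to the CCAAT box on either strand (CCAAT or ATTGG) and, in Hmgcs1, the single match to the sterol regulatory element core TCACNCCAC. The windows are Hmgcs1 at chr13:119690101-119690350 on the plus strand, Idi1 at chr13:8885356-8885605 on the plus strand, Cyp51 at chr5:4104698-4104947 on the minus strand, Msmo1 at chr8:64733579-64733828 on the minus strand and Acly at chr11:100528001-100528250 on the minus strand.
Hmgcs1: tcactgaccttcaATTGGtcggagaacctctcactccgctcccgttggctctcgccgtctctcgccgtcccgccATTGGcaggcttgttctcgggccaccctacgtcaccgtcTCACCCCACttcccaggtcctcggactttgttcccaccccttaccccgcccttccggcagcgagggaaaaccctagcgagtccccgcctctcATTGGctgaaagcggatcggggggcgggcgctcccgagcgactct
Idi1: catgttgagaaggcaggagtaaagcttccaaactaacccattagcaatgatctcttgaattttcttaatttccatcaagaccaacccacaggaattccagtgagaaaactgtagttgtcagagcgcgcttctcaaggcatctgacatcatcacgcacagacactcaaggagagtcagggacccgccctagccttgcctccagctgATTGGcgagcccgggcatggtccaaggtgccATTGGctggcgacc
Cyp51: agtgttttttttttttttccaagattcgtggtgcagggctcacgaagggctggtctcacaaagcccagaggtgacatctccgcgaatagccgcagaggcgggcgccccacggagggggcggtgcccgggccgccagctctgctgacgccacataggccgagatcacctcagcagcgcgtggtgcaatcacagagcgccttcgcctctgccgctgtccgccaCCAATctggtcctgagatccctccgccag
Msmo1: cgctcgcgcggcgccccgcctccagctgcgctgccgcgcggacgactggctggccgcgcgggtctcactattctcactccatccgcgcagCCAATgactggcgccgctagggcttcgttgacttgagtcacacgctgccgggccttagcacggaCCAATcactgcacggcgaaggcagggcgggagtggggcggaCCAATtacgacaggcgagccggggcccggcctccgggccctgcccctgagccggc
Acly: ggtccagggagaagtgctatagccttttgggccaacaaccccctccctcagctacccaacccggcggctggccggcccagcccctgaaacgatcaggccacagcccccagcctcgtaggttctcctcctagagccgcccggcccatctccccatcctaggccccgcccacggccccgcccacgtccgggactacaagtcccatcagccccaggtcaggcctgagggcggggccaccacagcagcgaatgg
Hmgcs1 held 3 CCAAT boxes in these bases, Msmo1 held 3, Idi1 held 2, Cyp51 held 1 and Acly held 0, although the 300-base window of Acly held 1 outside the bases shown. Over the whole 300-base windows, CCAAT was found on either strand in 19 of 23 member genes (82.6%), against 41.1% of the 27025 genes with a window. By role, it was present for 5 of 6 mevalonate enzymes, 8 of 8 sterol enzymes, 3 of 3 regulators and 3 of 6 fatty acid genes. The sterol regulatory element core was found in Hmgcs1 alone among the 23 (4.35%, against 1.44% of all genes with a window), on the plus strand, 137 bases before the start. A match is a match of letters in this window, and CCAAT and ATTGG matches can overlap each other, as they do in Fasn. Acat2 and Fads2, also lower in Car9-high cells of both libraries, are not shown and held 0 matches to either motif in their windows. Any relation of the motifs to the Car9 difference was not tested.

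The serine/glycine-free library held 7999 barcodes with 157234945 UMIs (median 16770 per barcode) and the control library held 8466 barcodes with 161332426 UMIs (median 17540). After cells with under 300 genes or over 20% mitochondrial UMIs were left out, 7913 and 8262 cells were kept, and 102 of their barcodes occurred in both libraries. Cells with a T cell receptor beta contig were called T cells (243 on the serine/glycine-free diet and 242 on the control diet). Cells with at least 0.1% of their UMIs from C1qa, C1qb and C1qc and no Krt20 were called macrophages (632 and 694). Cells with at least 1 Krt20 UMI and no Ptprc, the pan-leukocyte gene, are the class the selection rule calls tumour cells (4613 and 4121).

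The defining markers were present in the first 2 classes, whereas most epithelial markers were near 0 in the last, so these cells are called Krt20-positive cells here. The macrophage marker list summed to 29259 CPM (UMIs of a gene per 1e6 UMIs of the class) in macrophages on the serine/glycine-free diet and to 28666 CPM on the control diet. In Krt20-positive cells Krt20 stood at 248 and 158 CPM by selection, Krt18 at 19.6 and 24.1 CPM, and Krt8, Krt7, Krt19, Epcam and Cdh1 at under 1 CPM in both libraries. The 5 fibroblast markers summed to 714 and 479 CPM there, with Dcn at 497 and 260 CPM. T cell sums were not pure: Krt20 stood at 88.9 and 54.3 CPM in them, 35.9% and 34.4% of its level in Krt20-positive cells. T cell values are therefore also given for 212 and 221 cleaned T cells. These held no Krt20 and under 0.1% of their UMIs from C1qa, C1qb and C1qc, so some C1q UMIs remained. Fibroblast markers, which Krt20-positive cells also held, summed to 291 and 311 CPM in cleaned T cells.

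The sterol pathway enzymes were highest in Krt20-positive cells. Over the 17 mevalonate and sterol enzymes the summed level in Krt20-positive cells was 1002.5 CPM on the serine/glycine-free diet and 1097 CPM on the control diet. Macrophages held 422 and 510 CPM, and T cells 590 and 665 CPM. Cleaned T cells held 348 and 477 CPM, below the sum over all T cells in both libraries.

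Ratios below are ratios of CPM, and log2 ratios are taken after 5 CPM are added to both values, which understates differences of low genes, and a gene counts as past 1.5-fold on that scale. A gene was taken as measured in a comparison when the mean of both classes reached 20 CPM. Intervals are exact 95% Poisson intervals for levels and exact conditional binomial intervals for ratios, and they cover counting error only, not differences between mice. In the serine/glycine-free library 16 of 22 measured members were at least 1.5-fold higher in Krt20-positive cells than in macrophages (24.9% of all measured genes), with a median log2 ratio of 1.15. In the control library the count was 15 of 23 (24.8% of all measured genes), with a median of 1.03. Acat2, Sqle and Scd1, among others, were under 20 CPM in macrophages of both libraries and reached the floor through Krt20-positive cells. This favours higher ratios in these counts. Against all T cells the counts were 10 of 23 on the serine/glycine-free diet (14.6% of all measured genes) and 11 of 23 on the control diet (13% of all measured genes). Against cleaned T cells they were 16 of 22 (21.6% of all measured genes) and 15 of 22 (19.8% of all measured genes). Mvk, Nsdhl, Insig1 and Sqle (13.7 and 16.3 CPM) were under 20 CPM in cleaned T cells of both libraries. In the serine/glycine-free library Acat2, Msmo1 and Scd1, among others, were under 20 CPM in cleaned T cells too. All of these reached the floor through Krt20-positive cells, which again favours higher ratios in the counts against cleaned T cells.

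Scd1, a stearoyl-CoA desaturase, differed most from macrophages, with 116 CPM in Krt20-positive cells and 12.8 CPM in macrophages on the serine/glycine-free diet, and 104 and 5.53 CPM on the control diet. Fdps, which makes farnesyl diphosphate, stood at 307 CPM in Krt20-positive cells and 86.2 CPM in macrophages on the serine/glycine-free diet, and at 299 and 102 CPM on the control diet. Not all steps followed this order. Pmvk, the phosphomevalonate kinase, was lower in Krt20-positive cells, with 28.0 CPM against 37.9 CPM in macrophages on the serine/glycine-free diet and 32.1 against 39.9 CPM on the control diet. Ebp, the sterol isomerase, was at 84.1 CPM against 94.4 CPM in macrophages, and at 98.0 against 108 CPM on the control diet. The list of oxysterol response, efflux and trafficking genes had 10 of 11 measured genes lower in Krt20-positive cells than in macrophages on the serine/glycine-free diet (46.1% of all measured genes) and 8 of 10 on the control diet (47% of all measured genes).

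**Figure D1:**
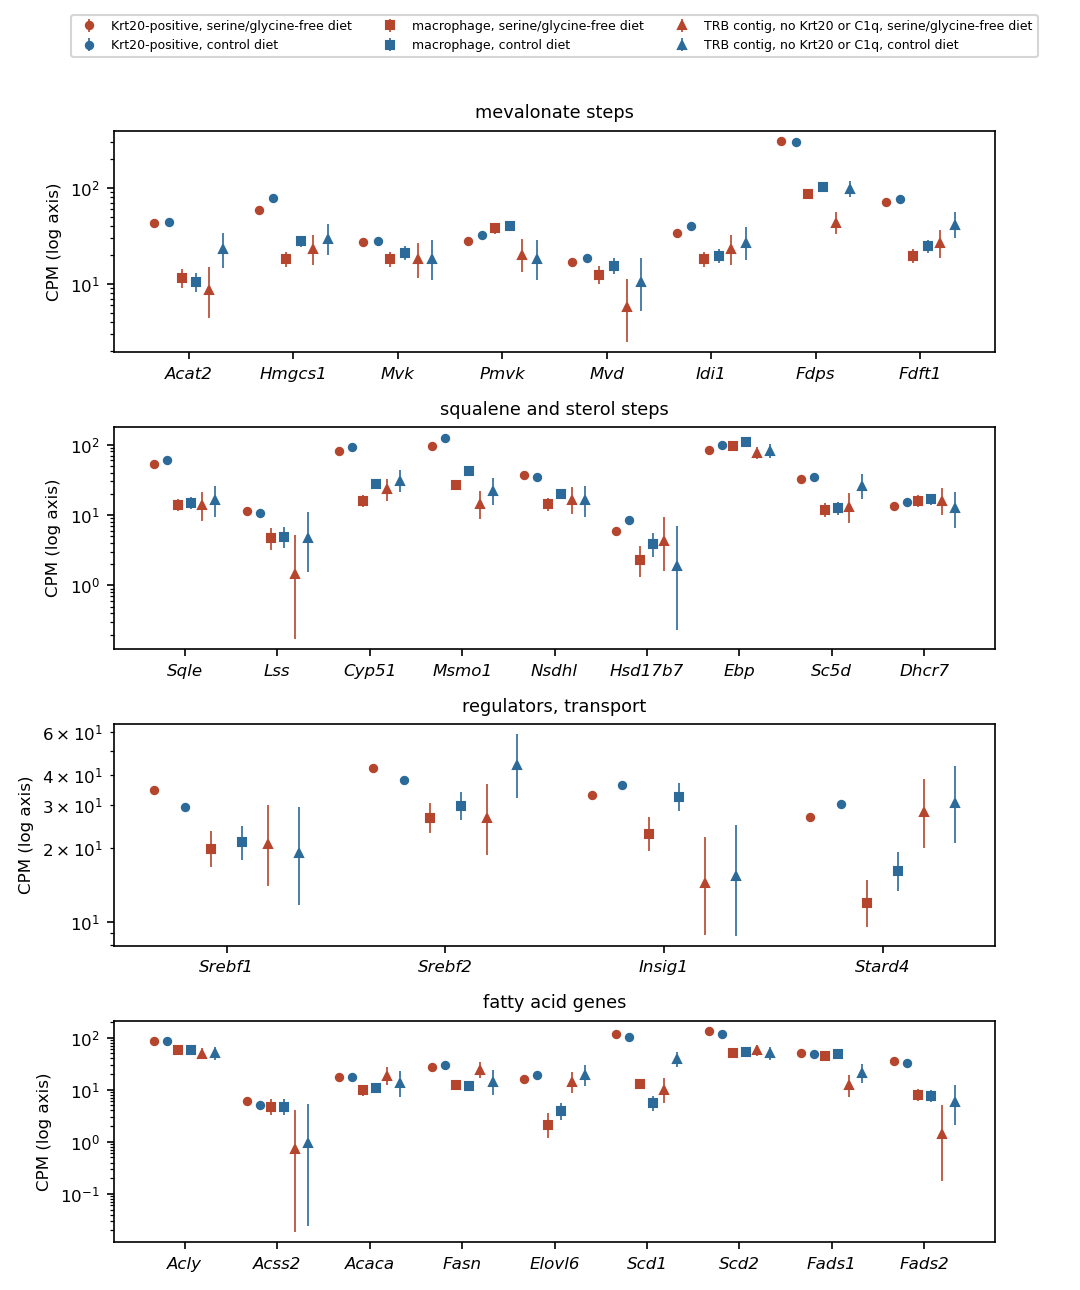
Level of each member (CPM, log axis) in Krt20-positive cells, macrophages and cleaned T cells of both libraries, in 4 panels by role. Bars are 95% counting intervals, and the legend words no Krt20 or C1q mark cleaned T cells. Most members lie highest in Krt20-positive cells, among them Scd1 (116 and 104 CPM), while Pmvk, Ebp and Dhcr7 lie higher in macrophages. Stard4 of both libraries and Srebf2 of the control library lie higher in cleaned T cells.

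Among Krt20-positive cells, the sterol pathway genes were lower in cells with Car9 RNA. Car9, carbonic anhydrase 9, is a well-known target of the hypoxia response, and 868 Krt20-positive cells of the serine/glycine-free library (18.8%, exact interval 17.7 to 20.0) and 334 of the control library (8.10%, 7.29 to 8.98) had at least 2 Car9 UMIs. They are called Car9-high cells and are set against the 3395 and 3487 cells with none (Car9-zero cells) of the same library. All 7 measured hypoxia genes were at least 1.5-fold higher in Car9-high cells in each library, with median log2 ratios of 1.27 on the serine/glycine-free diet and 1.38 on the control diet. The median UMI count per cell was 27470.5 in Car9-high and 21428 in Car9-zero cells of the serine/glycine-free library, and 25614.5 and 25029 in the control library, where depth was close to equal. Proliferation genes summed to 841 CPM in Car9-high and 863 CPM in Car9-zero cells on the serine/glycine-free diet, and to 1107 and 1155 CPM on the control diet. Fibroblast markers summed to 595 and 743 CPM on the serine/glycine-free diet, and to 421 and 484 CPM on the control diet, and their part in the differences was not tested.

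In the serine/glycine-free library 19 of 23 measured members were lower in Car9-high than in Car9-zero cells (71.4% of all measured genes), and 5 were lower by at least 1.5-fold (2.07% of all measured genes). In the control library 19 of 23 were lower (73.6% of all measured genes), and 3 by at least 1.5-fold (1.35% of all measured genes). Those past 1.5-fold were Idi1, Acat2, Hmgcs1, Cyp51 and Msmo1 on the serine/glycine-free diet and Idi1, Fdps and Acat2 on the control diet. Most measured genes were lower too, so the direction alone sets the members little apart, and the members' median log2 ratio was -0.46 and -0.42, against -0.12 over all measured genes in each library. All 13 measured mevalonate and sterol enzymes were lower in both libraries, with medians of -0.54 on the serine/glycine-free diet and -0.47 on the control diet. Idi1 on the serine/glycine-free diet and Mvk on the control diet had 1 class under 20 CPM, and the others were over 20 CPM in both classes.

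Of the mevalonate enzymes, Idi1, the isopentenyl diphosphate isomerase, stood at 18.9 CPM in Car9-high and 39.9 CPM in Car9-zero cells on the serine/glycine-free diet (ratio 0.473, interval 0.429 to 0.520), and at 25.7 and 43.0 CPM on the control diet (0.597, 0.523 to 0.680). Acat2, the cytosolic thiolase that joins acetyl-CoA units, stood at 26.6 and 48.5 CPM (0.549) and at 29.6 and 47.2 CPM on the control diet (0.626). Hmgcs1, the HMG-CoA synthase whose promoter held the sterol regulatory element core above, stood at 39.4 and 66.5 CPM (0.593) and at 59.4 and 82.2 CPM on the control diet (0.722). These ratios lay below 1 with their counting intervals in both libraries. Fdps stood at 228 CPM in Car9-high and 337 CPM in Car9-zero cells on the serine/glycine-free diet (0.676), and at 201 and 315 CPM on the control diet (0.639). Mvk, the mevalonate kinase, stood at 20.1 and 29.8 CPM (0.676) and at 20.0 and 29.5 CPM on the control diet (0.677). Pmvk (0.795 and 0.743) and Fdft1, the squalene synthase (0.775 and 0.738), had the mildest ratios of this branch on the serine/glycine-free diet.

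The steps after squalene behaved alike. Cyp51, the lanosterol demethylase, stood at 54.7 CPM in Car9-high and 91.7 CPM in Car9-zero cells on the serine/glycine-free diet (0.597, interval 0.563 to 0.631), and at 64.4 and 96.4 CPM on the control diet (0.669, 0.615 to 0.726). Msmo1, the sterol C4-methyl oxidase, stood at 68.0 and 107 CPM (0.635) and at 86.9 and 131 CPM on the control diet (0.666). Ebp stood at 62.1 and 92.9 CPM (0.669) and at 70.0 and 102 CPM on the control diet (0.686). Sqle, the squalene epoxidase (0.758 and 0.711), Nsdhl, the sterol dehydrogenase of the C4 demethylation (0.736 and 0.720), and Sc5d, the sterol C5 desaturase (0.816 and 0.848), were lower as well. Enzymes that use oxygen (Sqle, Cyp51, Msmo1, Sc5d) and enzymes that do not (Idi1, Acat2, Hmgcs1, Fdps) both lay below 1. The part of oxygen use was not tested.

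The regulators did not move as one. Srebf2, the transcription factor that mainly drives the cholesterol branch, stood at 32.2 CPM in Car9-high and 46.3 CPM in Car9-zero cells on the serine/glycine-free diet (0.695, interval 0.644 to 0.749), and at 28.9 and 39.7 CPM on the control diet (0.730, 0.643 to 0.825). Insig1, itself a target of these factors, stood at 24.1 and 36.5 CPM (0.659) and at 28.5 and 37.3 CPM on the control diet (0.764). Stard4, a cytosolic sterol carrier, had ratios of 0.678 in both libraries. Srebf1, which mainly drives the fatty acid branch, was higher in Car9-high cells instead, with 36.6 against 33.9 CPM in Car9-zero cells (1.08, 1.002 to 1.162) and 33.8 against 28.9 CPM on the control diet (1.17, 1.04 to 1.32). Insig2, the relative of Insig1, which was picked out after its values were seen, was also higher, with 61.3 CPM in Car9-high and 45.0 CPM in Car9-zero cells on the serine/glycine-free diet and 61.3 and 43.5 CPM on the control diet.

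The fatty acid genes split. Fads2, a front-end desaturase of polyunsaturated fatty acids, stood at 25.4 CPM in Car9-high and 40.3 CPM in Car9-zero cells on the serine/glycine-free diet (0.629), and at 22.9 and 34.4 CPM on the control diet (0.667). Fasn, the fatty acid synthase, stood at 20.1 and 30.8 CPM (0.653) and at 21.7 and 30.5 CPM on the control diet (0.710). Fads1, the other front-end desaturase, had ratios of 0.765 and 0.722. Scd2, a stearoyl-CoA desaturase, lay on the other side, with 156 CPM in Car9-high and 126 CPM in Car9-zero cells (1.24, interval 1.19 to 1.28) and 147 and 111 CPM on the control diet (1.33, 1.255 to 1.405). Acly, the ATP citrate lyase that supplies cytosolic acetyl-CoA, stood at 87.1 and 84.2 CPM (1.03, 0.986 to 1.08) and at 98.1 and 84.6 CPM on the control diet (1.16, 1.08 to 1.24). Scd1 had ratios of 1.08 and 1.05. The front-end desaturases and the stearoyl-CoA desaturases both use oxygen and lay on opposite sides of 1, and the part of oxygen use was not tested.

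The other 7 members (Mvd, Lss, Hsd17b7, Dhcr7, Acaca, Elovl6 and Acss2) were below the floor of 20 CPM in this comparison and in the diet comparison of all Krt20-positive cells. Mvd, the mevalonate diphosphate decarboxylase, stood at 9.76 CPM in Car9-high and 19.9 CPM in Car9-zero cells on the serine/glycine-free diet and at 10.8 and 19.9 CPM on the control diet. Elovl6, an elongase of long-chain fatty acids, stood at 9.08 and 18.5 CPM and at 12.5 and 20.0 CPM on the control diet. Dhcr7, the last enzyme of the cholesterol pathway in the Kandutsch-Russell branch, stood at 8.51 and 15.4 CPM and at 10.0 and 15.9 CPM on the control diet. With no floor, 4 of the 30 members on the serine/glycine-free diet and 5 of 30 on the control diet were higher in Car9-high cells.

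**Figure D2:**
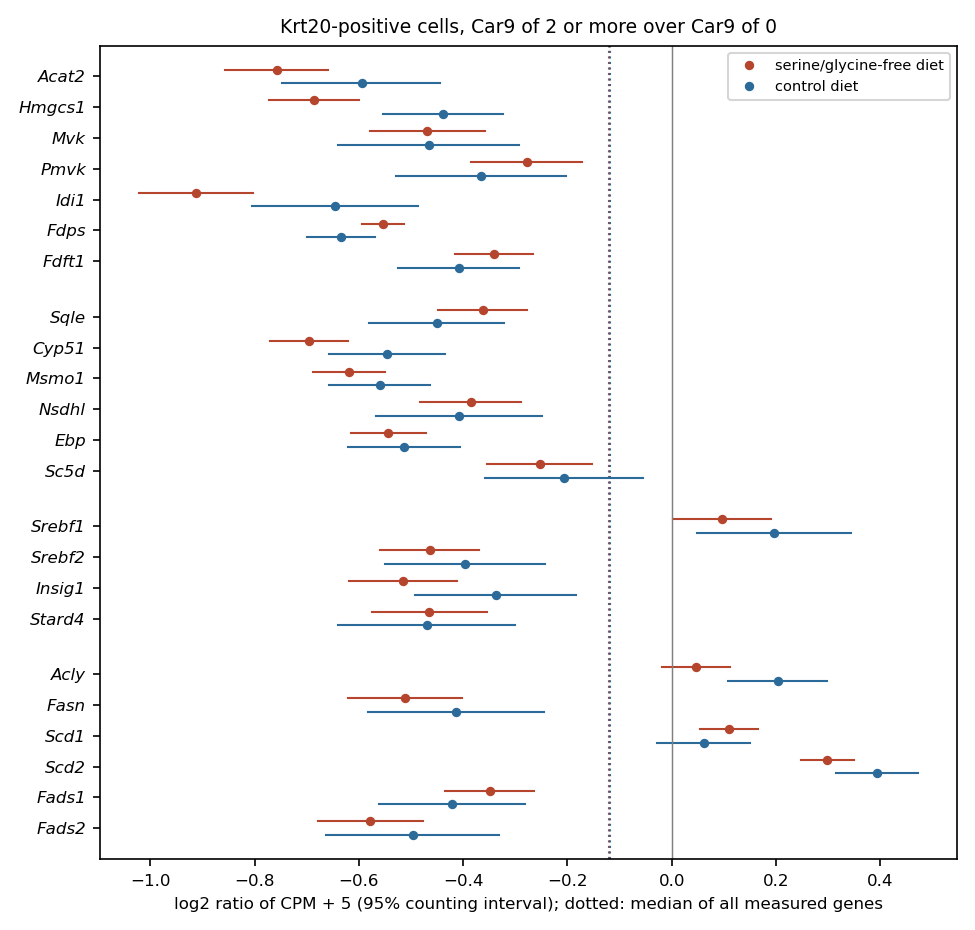
Log2 ratio of CPM + 5, Car9-high over Car9-zero Krt20-positive cells, for each measured member in both libraries, with 95% counting intervals and the median of all measured genes as a dotted line. The mevalonate and sterol enzymes lie left of 0 in both libraries, Idi1 farthest, and Scd2, Scd1, Acly and Srebf1 lie right of 0.

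The difference was graded with the number of Car9 UMIs per cell. In Krt20-positive cells with 0, 1, 2 to 4, and 5 or more Car9 UMIs, the summed level of the 17 enzymes was 1103, 921, 777 and 679 CPM with the serine/glycine-free diet (3395, 350, 477 and 391 cells), and 1149, 896, 822 and 638 CPM in the control library (3487, 300, 245 and 89 cells). The 9 fatty acid genes summed to 492, 482, 467 and 495 CPM with the serine/glycine-free diet, and to 458, 461, 469 and 464 CPM in the control library. The enzyme sum was thus lower at each step in both libraries and the fatty acid sum was not. Median depth in these classes was 21428, 26350.5, 26428 and 29132 UMIs per cell on the serine/glycine-free diet. On the control diet it was 25029, 25133, 25514 and 26143 UMIs, and the part of depth was not tested. On the serine/glycine-free diet 17 of 23 members were lower at each of the 3 steps (33.4% of all measured genes), 12 of them among the 13 enzymes, and on the control diet 14 of 23 (29.8% of all measured genes), 9 of them enzymes. Idi1 stood at 39.9, 29.96, 23.0 and 14.2 CPM in the serine/glycine-free library, and at 43.0, 28.5, 27.5 and 20.3 CPM in the control library. Srebf1 and Scd2 were the members higher at each step on the serine/glycine-free diet, and on the control diet no member was. Scd2 stood at 126, 134, 139 and 175 CPM in the serine/glycine-free library, and at 111, 135, 135 and 182 CPM in the control library.

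**Figure D3:**
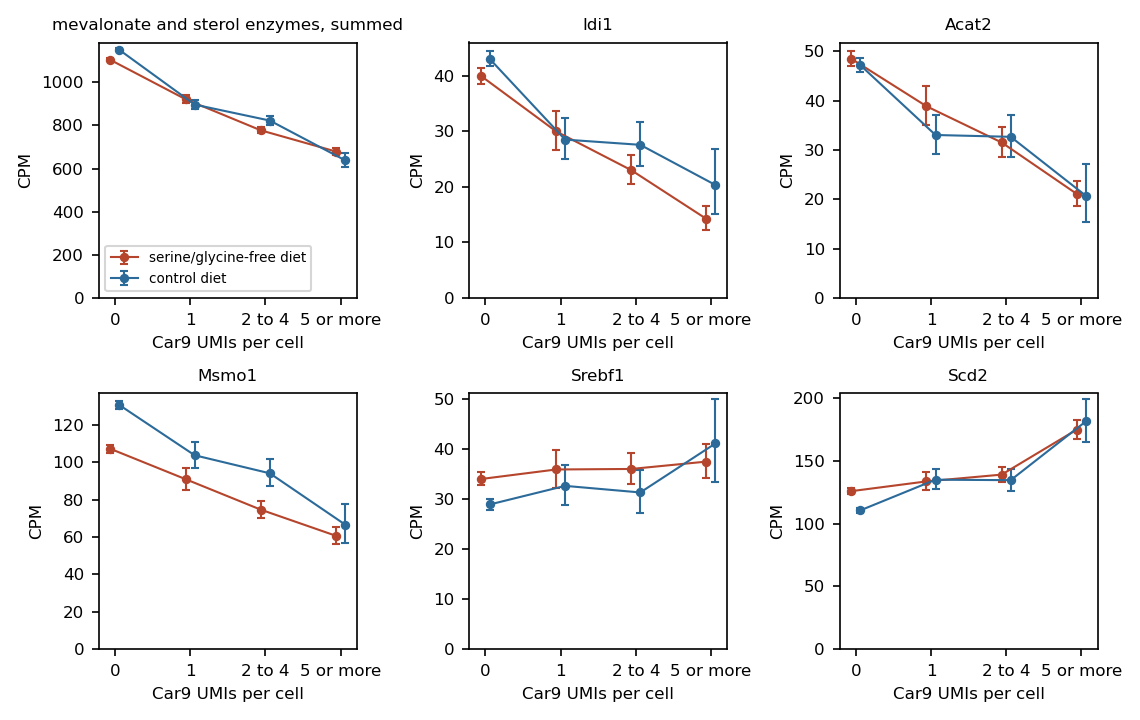
Level (CPM) against the number of Car9 UMIs per Krt20-positive cell (0, 1, 2 to 4, 5 or more) in both libraries, with 95% counting intervals, for the sum of the 17 enzymes and for single genes. The enzyme sum is lowest with 5 or more Car9 UMIs (679 CPM on the serine/glycine-free diet and 638 CPM on the control diet), where Scd2 is highest (175 and 182 CPM).

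Mki67, the gene of the proliferation antigen Ki-67, gave a second split of the Krt20-positive cells. At least 1 Mki67 UMI was found in 1825 cells of the serine/glycine-free library (39.6%, exact interval 38.1 to 41.0) and 2045 of the control library (49.6%, 48.1 to 51.2). These Mki67-positive cells were set against the 2788 and 2076 cells with none (Mki67-zero cells). All 8 proliferation genes were at least 1.5-fold higher in Mki67-positive cells of both libraries. The same cells were deeper, with a median of 30214 UMIs against 19731.5 in Mki67-zero cells on the serine/glycine-free diet and 30251 against 21345.5 on the control diet. All 7 measured hypoxia genes were lower in them, and fibroblast markers summed to 435 CPM against 995 CPM in Mki67-zero cells on the serine/glycine-free diet and to 396 against 598 CPM on the control diet. The part of these differences was not tested.

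The cholesterol enzymes differed little with Mki67, and the difference between the libraries was not tested. On the serine/glycine-free diet 17 of 23 measured members were higher in Mki67-positive cells (53.3% of all measured genes), 12 of 13 among the enzymes, with a median log2 ratio of 0.13 against 0.02 over all measured genes. With at least 3 Krt20 UMIs required per cell, an alternative chosen after seeing the data, 12 of 23 were higher and the median was 0.008. On the control diet 9 of 23 were higher (52% of all measured genes), 5 of 13 among the enzymes, with a median of -0.03 against 0.01. Past 1.5-fold there were 0 members in either library, where 9.32% of all measured genes on the serine/glycine-free diet and 7.64% of all measured genes on the control diet passed. The control median is near 0 and its sign changed under another averaging, so no direction is read from it.

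On the serine/glycine-free diet Mvk stood at 31.9 CPM in Mki67-positive and 22.3 CPM in Mki67-zero cells, against 30.1 and 24.9 CPM on the control diet. Acat2 stood at 48.8 and 36.5 CPM on the serine/glycine-free diet and at 46.2 and 42.3 CPM on the control diet, and Fdft1 at 79.7 and 62.7 CPM and at 79.1 and 73.5 CPM. Ebp was likewise higher in both, at 95.6 and 72.6 CPM and at 104 and 89.5 CPM on the control diet. Other mevalonate and sterol enzymes were lower with Mki67 on the control diet. Hmgcs1 stood at 72.7 CPM in Mki67-positive and 88.3 CPM in Mki67-zero cells there, Cyp51 at 84.7 and 103 CPM, Msmo1 at 116 and 137 CPM, and Sqle at 55.4 and 66.0 CPM. On the serine/glycine-free diet Msmo1 stood at 102 and 91.9 CPM and Sqle at 54.0 and 51.1 CPM.

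Of the regulators, Srebf2 stood at 45.7 CPM in Mki67-positive and 39.3 CPM in Mki67-zero cells on the serine/glycine-free diet and at 38.8 and 37.0 CPM on the control diet. Insig1 stood at 31.6 and 34.8 CPM and at 32.8 and 41.2 CPM on the control diet, Srebf1 at 34.5 and 34.9 CPM and at 27.9 and 32.0 CPM, and Stard4 at 30.01 and 23.9 CPM and at 32.1 and 27.8 CPM. Scd1, Scd2 and Acly were lower in Mki67-positive cells in both libraries. Scd1 stood at 100 and 131 CPM on the serine/glycine-free diet (ratio 0.765, interval 0.739 to 0.792) and at 93.4 and 120 CPM on the control diet (0.780, 0.751 to 0.809). Scd2 stood at 123 and 144 CPM and at 99.2 and 139 CPM on the control diet, and Acly at 77.0 and 93.5 CPM and at 78.7 and 97.5 CPM. Fasn stood at 30.7 and 25.3 CPM on the serine/glycine-free diet and at 29.6 and 29.0 CPM on the control diet. Lbr, the lamin B receptor with sterol reductase activity, was the further synthesis gene past 1.5-fold, with 37.1 CPM in Mki67-positive and 15.1 CPM in Mki67-zero cells on the serine/glycine-free diet and 50.5 and 21.5 CPM on the control diet.

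The Car9 difference was present within both Mki67 classes. Within Mki67-positive cells 19 of 23 members were lower in Car9-high than in Car9-zero cells on the serine/glycine-free diet (69.1% of all measured genes) and 20 of 23 on the control diet (74.5% of all measured genes). Within Mki67-zero cells the counts were 19 of 23 (70.6% of all measured genes) and 19 of 23 (66.9% of all measured genes). All 13 measured enzymes were lower in each of these 4 comparisons. Their median log2 ratio within Mki67-positive cells was -0.44 on the serine/glycine-free diet and -0.47 on the control diet, and within Mki67-zero cells -0.60 and -0.50. The summed level of the 17 enzymes, serine/glycine-free diet before control diet, was 812 and 758 CPM in Car9-high Mki67-positive cells (326 and 148 cells) and 656 and 796 CPM in Car9-high Mki67-zero cells (542 and 186 cells). It was 1172 and 1124 CPM in Car9-zero Mki67-positive cells (1355 and 1761 cells) and 1033 and 1187 CPM in Car9-zero Mki67-zero cells (2040 and 1726 cells). In both Mki67-zero classes the sum was lower on the serine/glycine-free diet. In the Mki67-positive classes its order rested on Fdps: without Fdps the sum was 556 and 556 CPM in Car9-high cells and 807 and 810 CPM in Car9-zero cells, and in Mki67-zero cells it was 455 and 596 CPM with high Car9 and 725 and 870 CPM with no Car9. This sum without Fdps was added after the data were seen.

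**Figure D4:**
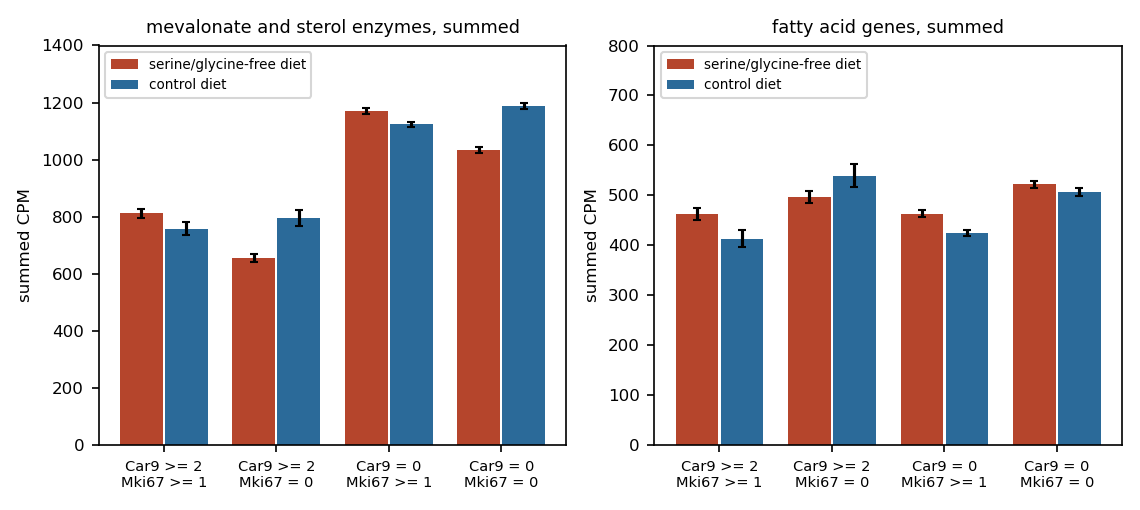
Summed CPM of the 17 mevalonate and sterol enzymes and of the 9 fatty acid genes in the 4 classes of Krt20-positive cells by Car9 and Mki67, with 95% counting intervals, for both libraries. For the enzymes both Car9-high classes (656 to 812 CPM) lie below both Car9-zero classes (1033 to 1187 CPM).

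Between diets, the members differed by less than 1.5-fold in Krt20-positive cells. There 15 of 23 measured members were lower in the serine/glycine-free library (68.6% of all measured genes), 0 were past 1.5-fold (2.47% of all measured genes), and the median log2 ratio was -0.06 against -0.09 over all measured genes. The share of lower members was no greater than the background. The enzymes made up 11 of the 15, with a median of -0.17 over the 13 measured, and 4 of 6 fatty acid genes were higher. Hmgcs1 stood at 59.3 CPM on the serine/glycine-free diet and 79.1 CPM on the control diet (ratio 0.7501, interval 0.727 to 0.774). Msmo1 stood at 96.8 and 125 CPM (0.776, 0.757 to 0.796). Idi1 stood at 34.3 and 40.3 CPM, Pmvk at 28.0 and 32.1 CPM, Ebp at 84.1 and 98.0 CPM, and Sqle at 52.6 and 59.8 CPM. Cyp51 stood at 81.5 and 92.2 CPM, Fdft1 at 71.2 and 76.8 CPM and Fdps at 307 and 299 CPM.

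Srebf1 and Srebf2 were on the higher side on the serine/glycine-free diet, with 34.7 CPM against 29.6 CPM on the control diet for Srebf1 (1.17, interval 1.12 to 1.23) and 42.5 against 38.0 CPM for Srebf2 (1.12, 1.07 to 1.16). Insig1 stood at 33.2 and 36.2 CPM, and Stard4 at 27.0 and 30.3 CPM. Scd2 stood at 133.5 and 115.6 CPM (1.15), Scd1 at 115.5 and 104.3 CPM (1.11), Fads2 at 36.0 and 32.8 CPM and Fads1 at 50.9 and 48.7 CPM. Hypoxia genes, 7 of 7 higher with a median log2 ratio of 0.72, and proliferation genes, 8 of 8 lower with a median of -0.43, moved with the diets in the same cells, as did fibroblast markers (714 and 479 CPM), and their part was not tested.

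The diets were also compared within each Mki67 class. Within Mki67-zero cells 17 of 24 measured members were lower on the serine/glycine-free diet (66.2% of all measured genes), 13 of 14 among the enzymes. The enzyme median was -0.25 against -0.08 over all measured genes. Mvd, at 17.5 CPM on the serine/glycine-free diet and 23.3 CPM on the control diet, reached the floor here through the control library. This favours a lower ratio in these counts. Within Mki67-positive cells 11 of 23 were lower (70.5% of all measured genes), 8 of 13 among the enzymes, with an enzyme median of -0.03. Hmgcs1 stood at 58.1 CPM on the serine/glycine-free diet and 88.3 CPM on the control diet in Mki67-zero cells (0.658), and at 60.5 and 72.7 CPM in Mki67-positive cells. Msmo1 stood at 91.9 and 137 CPM in Mki67-zero cells (0.670), and at 102 and 116 CPM in Mki67-positive cells. Neither diet difference was tested, nor was their difference from each other. In Mki67-zero cells the diets also differed in fibroblast markers, with 995 CPM on the serine/glycine-free diet and 598 CPM on the control diet, and in hypoxia genes, with 3806 and 2217 CPM. In Mki67-positive cells these sums were 435 and 396 CPM and 2709 and 1722 CPM, and their part was not tested.

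In macrophages 12 of 13 measured members were lower on the serine/glycine-free diet (69.7% of all measured genes). Past 1.5-fold was 1 of them, where 3.59% of all measured genes passed in either direction. The median log2 ratio was -0.18 against -0.10 over all measured genes. Cyp51 stood at 15.9 CPM on the serine/glycine-free diet and 27.2 CPM on the control diet (0.584, interval 0.459 to 0.740). Cyp51, Hmgcs1, Fdft1 and Srebf1 were under 20 CPM on the serine/glycine-free diet and reached the floor through the control library, which favours lower ratios in the count above. Msmo1 stood at 27.1 and 41.6 CPM (0.651), and Hmgcs1 at 18.1 and 27.8 CPM (0.654). Fdps stood at 86.2 and 102 CPM (0.847), Fdft1 at 19.6 and 24.7 CPM, Pmvk at 37.9 and 39.9 CPM, and Ebp at 94.4 and 108 CPM. Of the members over 20 CPM in both libraries, Msmo1 had the lowest ratio. Insig1 stood at 23.0 and 32.5 CPM (0.708), Srebf2 at 26.7 and 29.8 CPM and Srebf1 at 19.8 and 21.1 CPM. Acly, at 57.8 and 57.5 CPM, was the member on the higher side, Fads1 stood at 44.9 and 49.3 CPM, and Scd2 at 50.3 and 52.1 CPM. The other 17 members were under the floor, among them Scd1 with 12.8 and 5.53 CPM. Fabp5, a fatty acid binding protein from the further list, stood at 235 CPM on the serine/glycine-free diet and 111 CPM on the control diet (2.12, 1.95 to 2.31). Red cell genes were at 0 in the serine/glycine-free macrophages and summed to 280 CPM in the control macrophages, and fibroblast markers summed to 146 and 250 CPM. Of the hypoxia genes 5 of 6 were higher on the serine/glycine-free diet and of the proliferation genes 7 of 7 were lower. The part of these differences was not tested.

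In T cells 17 of 21 measured members were lower on the serine/glycine-free diet (56.7% of all measured genes). Past 1.5-fold were 2 of them, where 8.51% of all measured genes passed in either direction. The median log2 ratio was -0.18 against -0.05 over all measured genes. Srebf2 stood at 27.6 CPM on the serine/glycine-free diet and 47.3 CPM on the control diet (0.583, interval 0.414 to 0.820), and Scd1 at 41.2 and 69.4 CPM (0.594, 0.449 to 0.784). Pmvk, at 30.02 and 20.8 CPM, and Scd2, at 91.3 and 74.5 CPM, were on the higher side. Fdft1 stood at 40.0 and 49.9 CPM, Fdps at 142 and 162 CPM and Acat2 at 22.0 and 25.9 CPM. Msmo1 stood at 38.8 and 51.8 CPM, Sqle at 28.4 and 35.4 CPM, Cyp51 at 39.2 and 47.3 CPM and Sc5d at 24.8 and 29.0 CPM. The intervals of these ratios for Fdft1, Fdps, Acat2, Msmo1, Sqle, Cyp51 and Sc5d all held 1, so the differences were not resolved at this depth. Srebf1 stood at 22.4 and 20.2 CPM, Insig1 at 21.2 and 21.5 CPM, Acly at 55.6 and 63.8 CPM, and Fads1 at 22.0 and 27.2 CPM. Acsl5, an acyl-CoA synthetase from the further list, stood at 72.8 and 46.7 CPM (1.56). The macrophage markers summed to 309 CPM in T cells of the serine/glycine-free diet and 747 CPM in those of the control diet, 6 of 6 measured hypoxia genes were higher (median log2 ratio 0.32), and 7 of 8 proliferation genes were higher (0.46), and their part was not tested. The members' median was -0.04, with 6 of 12 higher, without the 10% of cells with the most UMIs, and -0.06, with 6 of 15 higher, as a mean over cells.

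In cleaned T cells 10 of 12 measured members were lower on the serine/glycine-free diet (50% of all measured genes) and the median was -0.24 against 0.00. Srebf2 stood at 26.6 CPM on the serine/glycine-free diet and 44.1 CPM on the control diet, and Fdps at 43.2 and 97.7 CPM (0.442). Scd1, at 10.1 and 38.3 CPM, reached the floor through the control library, which favours a lower ratio in the count above. It rested on few cells, with 14 UMIs in 5 cells on the serine/glycine-free diet and 40 UMIs in 12 cells on the control diet. Red cell genes were at 0 in the serine/glycine-free T cells and summed to 747 CPM in all control T cells and 1134 CPM in the cleaned ones. Of the fibroblast markers, Col1a1 stood at 5.76 and 36.4 CPM, Col3a1 at 7.92 and 46.9 CPM and Lum at 4.32 and 5.75 CPM. Dcn, at 269 and 218 CPM, and Pdgfra, at 4.32 and 3.83 CPM, went the other way. The median depth was 5019.5 UMIs per cell on the serine/glycine-free diet and 2655 on the control diet. The part of the red cell genes, of the fibroblast markers and of depth was not tested.

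**Figure D5:**
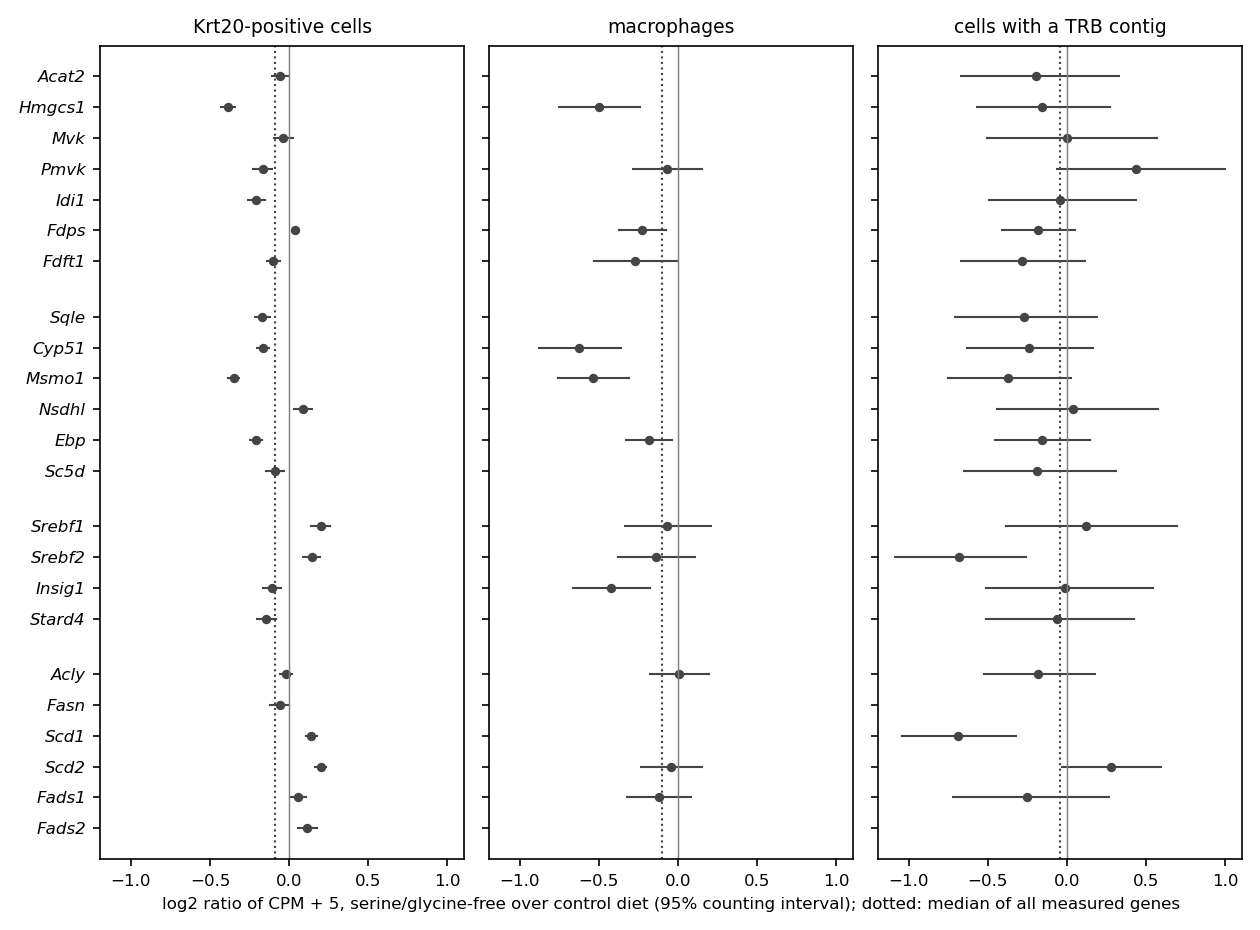
Log2 ratio of CPM + 5, serine/glycine-free over control diet, for measured members in Krt20-positive cells, macrophages and T cells, with 95% counting intervals and the median of all measured genes as a dotted line. Points in Krt20-positive cells stay within 1.5-fold, and Cyp51 in macrophages and Srebf2 and Scd1 in T cells lie lowest.

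Single cells varied widely in the sterol genes. When each Krt20-positive cell was thinned to 5000 UMIs, which left out 74 of 4613 cells on the serine/glycine-free diet and 57 of 4121 on the control diet, the 17 enzymes gave a mean of 4.70 and 5.36 UMIs per cell. The 10th percentile was 1 such UMI in both libraries and the 90th percentile was 10 and 11, with 8.33% and 5.91% of cells at 0. The variance was 3.37 and 3.38 times the mean, against 1.32 and 1.39 times for the fatty acid genes. The mevalonate and the sterol sums correlated over cells with a Pearson r of 0.48 (n = 4539) and 0.50 (n = 4064), and the enzyme and fatty acid sums with 0.23 and 0.26. These correlations describe cells that share a library and are thinned to the same depth. The fatty acid variance was close to its mean, so counting noise lowers its correlation, and the coefficients are not compared. Car9-high cells had a mean of 3.34 enzyme UMIs on the serine/glycine-free diet and 3.73 on the control diet, against 5.09 and 5.62 in Car9-zero cells. The fatty acid mean was 2.46 and 2.43 UMIs in Car9-high cells, against 2.46 and 2.35 in Car9-zero cells. The Car9 classes themselves were set on the counts before thinning.

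The further genes of the pathways were counted from a list of 25 synthesis genes found in the files and 13 oxysterol response, efflux and trafficking genes. Of the measured synthesis genes 11 of 15 on the serine/glycine-free diet and 11 of 14 on the control diet were lower in Car9-high cells, and of the efflux genes 4 of 7 and 3 of 6, beside 71.4% and 73.6% of all measured genes. These shares of synthesis genes are close to the background. Mid1ip1, which promotes the polymerisation of acetyl-CoA carboxylase, was the one past 1.5-fold, with 50.4 CPM in Car9-high and 79.2 CPM in Car9-zero cells on the control diet (0.636). In the diet comparison of Krt20-positive cells, 10 of 15 synthesis genes and 2 of 6 efflux genes were lower on the serine/glycine-free diet, beside 68.6% of all measured genes.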

How the data were processed

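The deposited matrices hold raw UMI counts per gene and cell barcode, produced by the authors with Cell Ranger (7.1.0 per the file headers, 2.2.2 and mm10 per the submitters' processing notes, with the difference unresolved). The members, gene lists and comparisons were chosen with earlier results of these data known. Cells under 300 genes or over 20% mitochondrial UMIs were dropped, and no doublet caller was run. T cell receptor and immunoglobulin genes (650) were left out of the totals used for CPM, since 1 receptor chain per clone would weigh on them. Counts were summed per class and library with python 3.11.15, numpy 2.4.6, scipy 1.17.1 and pandas 2.3.3, and the interval and ratio code was tested on simulated data. The libraries held 157234945 UMIs (serine/glycine-free) and 161332426 UMIs (control). Classes within a library share mice and library. Values were given, per comparison and role, for up to 4 measured members with the largest absolute log2 ratio, always for Srebf1, Srebf2 and Insig1, and for at most 5 further genes past 1.5-fold. Other members are named to complete the account. The single-gene values of cleaned T cells, the series of Car9 classes and the Car9 ratios within Mki67-positive cells were added after the data were seen. Alternatives covered the floor, the pseudocount, the totals, the cell filters, the class thresholds, thinning and the average over cells.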

Additional observations from a re-analysis of the deposited data

Results flagged for a closer look

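For 5 genes the counting intervals of a ratio lay on opposite sides of 1 in 2 cell classes or libraries; the differences themselves were not tested. The ratio of Srebf2, serine/glycine-free over control diet, was 0.583 in T cells and 1.12 in Krt20-positive cells. For Scd1 the same ratio was 0.594 in T cells and 1.11 in Krt20-positive cells, with T cell sums that held Krt20 at 35.9% and 34.4% of its level in Krt20-positive cells. For Fdps it was 0.847 in macrophages and 1.03 in Krt20-positive cells. The ratio of Sqle, Mki67-positive over Mki67-zero Krt20-positive cells, was 1.06 on the serine/glycine-free diet and 0.839 on the control diet. For Msmo1 that ratio was 1.11 on the serine/glycine-free diet and 0.846 on the control diet.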

How the results depend on the processing

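With 1 library per diet, no alternative replaces the missing replicates, and counting intervals do not cover differences between mice. No paired analysis was possible because each diet has 1 library and no result comes from a test. The Car9 medians kept their sign under all 12 alternatives in each library, between -0.54 and -0.42 on the serine/glycine-free diet and between -0.51 and -0.27 on the control diet. In the control library the number of members higher in Car9-high cells was 7 of 23 when cells were thinned to 5000 UMIs before the split, against 4. The diet counts of members on the higher side were less stable. In T cells, against 4 of 21, it was 10 of 30 with no floor and 1 of 5 with a floor of 50 CPM. It was 7 of 24 with totals without mitochondrial and ribosomal protein genes, and 2 of 12 in cleaned T cells. In T cells with Mki67, an alternative chosen after seeing the data, it was 10 of 21. The median over T cell members ran from -0.27 to -0.03, against -0.18; it was -0.04 without the 10% of cells with the most UMIs and -0.06 as a mean over cells. In macrophages, against 1 of 13, it was 5 of 30 with no floor, 2 of 12 without the 10% of cells with the most UMIs, 2 of 13 as a mean over cells and 0 of 13 with C1q of at least 0.3% of UMIs. With a floor of 50 CPM it was 3 of 10 in Krt20-positive cells between diets, and for Mki67 8 of 11 on the serine/glycine-free diet and 2 of 10 on the control diet. With at least 3 Krt20 UMIs per cell, chosen after seeing the data, the Mki67 median on the serine/glycine-free diet was 0.008, against 0.13. The Mki67 median on the control diet changed sign to 0.025 as a mean over cells, against -0.03, and the cause was not tested.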
